A study of Arabidopsis thaliana with 24 samples.

Results

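The subject is 38 Arabidopsis transcripts whose reactivity to dimethyl sulfate (DMS) was held by very few bases in every condition measured. They were chosen from the deposited table of DMS reactivity, with the lowest-numbered isoform kept for each locus, as those with a Gini index of at least 0.85 in salt-treated roots, control roots, salt-treated shoots and control shoots. They were 38 of 8956 loci, or 0.424%. The Gini index that chose them, and every other reactivity value, which comes from the same bases, is given as a description without a test.

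DMS enters living tissue and methylates adenines and cytosines whose pairing face is free, and reverse transcription stops at the methylated base. In a folded messenger RNA many unpaired bases react to a moderate degree, and the signal is spread along the molecule. The Gini index summarises that spread on a scale from 0, all bases equally reactive, to 1, all reactivity at a single base. The table gives neither the number of stops counted on a transcript nor its level, so whether the 38 were poorly expressed, and what part read depth had in their values, was not tested.

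The series asks, from its title, how salt changes RNA structure in different tissues. Plants of the accession Col-0 were grown in hydroponic solution, and 24-day-old plants were exposed to 100 mM NaCl for 48 h or stayed in the original solution. Each library came from shoots or roots of about 40 pooled plants, held for 5 min in buffer with DMS at 0.75% (75 mM) or without it. The 24 libraries formed 8 groups of tissue, salt and DMS with 3 biological replicates each, so that each of the 4 conditions rests on 6 poly(A)-selected libraries, which the authors combined into 1 value per transcript. No spread between replicates can therefore be given, no difference below could be set against it. Tissue identity could not be checked with marker genes, since the table holds reactivity and no transcript level.

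By annotation, types other than protein-coding were common among the 38. RefSeq lists 25 of them as protein-coding (65.8%), against 98.3% of all 8956 loci. Another 12 carry a different type (31.6%, against 0.994% of all loci), and 1, the mitochondrial locus ATMG01200, is not in the RefSeq table used. Gene type was not used to choose them.

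Pseudogenes were the main addition. RefSeq calls 5 of the 38 a pseudogene (SADHU2-1, SADHU6-1, AT1G42580, AT2G06950 and AT5G10670) and 4 a transcribed pseudogene (AT2G07783, AT2G13580, AT3G28350 and AT4G06597), which together make 23.7% of the group, against 0.424% of all loci. Seen from the other side, 9 of the 38 pseudogenes in the whole table had very uneven reactivity everywhere, which is 23.7% of them, against 0.284% of the protein-coding loci. Their Gini indices, averaged over the 4 conditions, ran between 0.874 in AT1G42580 and 0.979 in AT4G06597.

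Among the pseudogenes were both SADHU elements of the group, SADHU2-1 and SADHU6-1. SADHU elements are short non-coding retrotransposons, mobile sequences that copy themselves through RNA and lack a protein of their own. The table held 5 loci whose names mark a transposable element, and these 2 were the ones past the limit in all conditions. SADHU7-1 passed it in roots but not in shoots, with 0.910 in salt-treated roots, 0.881 in control roots, 0.845 in salt-treated shoots and 0.809 in control shoots.

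Small nuclear, small nucleolar and other non-coding RNA supplied a member each. U6-1 encodes the U6 small nuclear RNA, a core part of the spliceosome that pairs with the 5' splice site, and it was 1 of 3 small nuclear RNA loci in the table. U3B encodes the U3 small nucleolar RNA, which guides early cleavage of the ribosomal RNA precursor, and was 1 of 13 small nucleolar RNA loci. AT2G46192 is annotated as a non-coding RNA and was 1 of 20 such loci, and none of the 14 loci typed as lncRNA was in the group. The libraries were made from RNA selected for poly(A) tails, which mature U6 and U3 RNA lack.

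Of the 25 protein-coding loci, 6 have a gene symbol of their own. CYP707A2 encodes an abscisic acid 8'-hydroxylase, which breaks down the hormone abscisic acid and is known best from germinating seeds. SHP1 (SHATTERPROOF 1) encodes a MADS-box transcription factor of the fruit valve margin, CYCD4;1 a D-type cyclin of cell-cycle entry, and TPPI a trehalose-6-phosphate phosphatase. AGP40 encodes an arabinogalactan protein of the cell wall, and GTC2 is named as a global transcription factor of group C. The other 19 protein-coding loci carry a locus code alone, and no role is given to them here. Over all 38 transcripts a symbol was present in 10 (26.3%), against 47.6% of all loci.

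Several well-known families had no member in the group. By name, none of the 64 ribosomal protein loci, 75 protein kinase loci, 44 histone loci, 38 heat shock or chaperone loci, 34 photosynthesis loci or 14 chloroplast-encoded loci in the table was a member. GTC2 was the 1 member among 240 loci named as transcription factors, CYP707A2 the 1 among 29 cytochrome P450 loci, and ATMG01200 the 1 among 6 mitochondria-encoded loci. No member was found among 14 peroxidase, 14 small secreted peptide, 13 F-box, 10 unknown-protein, 3 pentatricopeptide and 1 upstream-ORF loci. The group held 0.424% of all loci, and at that share lists of these sizes would mostly hold no member. Nothing is therefore read from the absences. These counts follow the words of gene symbols and synonyms only, so that the MADS-box factor SHP1, and members without a descriptive name such as AT1G47300 or AT3G47030, are counted in none of them.

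Many of the loci were short. Their median RefSeq gene length was 1199 bp over the 37 with a length, against 2483 bp over all loci, and 15 of 37 (40.5%) were shorter than 1000 bp, against 4.48% of all loci. U6-1 at 101 bp was the shortest and AT3G52700 at 6209 bp the longest. Among protein-coding loci alone the medians were 1412 bp for the 25 members and 2493 bp for all 8804. The table held several isoforms for 2 of the 38 loci (5.26%), against 31.6% of all loci.

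Position on the chromosomes, read off the locus codes, was uneven too. Chromosome 2 held 13 of the 38 (34.2%), against 14.8% of all loci, whereas chromosome 1 held 5 (13.2%), against 25.6%. Chromosome 5 held 5 (13.2%, against 23.6%). Chromosome 3, with 9 (23.7%, against 20.5%), and chromosome 4, with 5 (13.2%, against 15.2%), were nearer the general share. The mitochondrial genome held 1 (2.63%, against 0.067%). Overlap with another annotated gene was close to the general share, with 13 of 37 members (35.1%), against 32.7% of all loci.

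**Figure D1:**
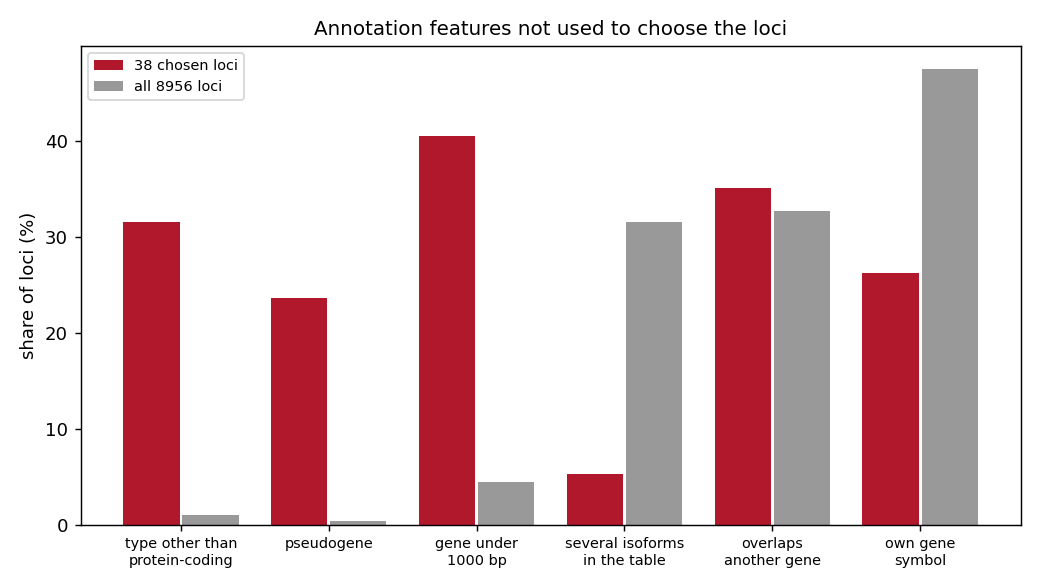
Bars give the share of loci (%, y axis) with each annotation feature (x axis), for the 38 very uneven transcripts (red) and all 8956 loci (grey); length and overlap are over the loci found in RefSeq. Types other than protein-coding (31.6% against 0.994%) and genes under 1000 bp (40.5% against 4.48%) are more frequent in the group, several isoforms (5.26% against 31.6%) less frequent, and overlap with another gene is at a similar level.

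Along the scale of the Gini index the 38 spread from just above the limit to almost complete concentration. The median was 0.918 in salt-treated roots, 0.915 in control roots, 0.925 in salt-treated shoots and 0.931 in control shoots. Over all loci the medians were 0.687 in salt-treated roots, 0.678 in control roots, 0.690 in salt-treated shoots and 0.679 in control shoots. In any single condition 66 to 75 loci reached 0.85. The share was 0.804% of loci in salt-treated roots, 0.748% in control roots, 0.837% in salt-treated shoots and 0.737% in control shoots.

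At the lower edge of the group stood CYCD4;1 with a lowest value of 0.855, AT1G70430 with 0.856 and AT4G00651 with 0.858. Just outside were MPS1 at 0.847, AT3G09680 at 0.840 and the transcribed pseudogene AT5G28330 at 0.839. CYCD4;1 on the inside and MPS1 on the outside lay within 0.01 of each other and of the limit.

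At the upper end 17 transcripts exceeded 0.90 in all conditions, and 9 exceeded 0.95. The 9 were the pseudogenes SADHU2-1, AT4G06597 and AT5G10670, the small nuclear RNA U6-1, and AT2G16018, AT2G47570, AT3G47030, AT3G52700 and AT5G55430, which are annotated as protein-coding. The highest single value was that of AT3G47030 in control roots. Its index was 0.989 in salt-treated roots, 0.996 in control roots, 0.954 in salt-treated shoots and 0.955 in control shoots, so both root values lay above both shoot values.

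The difference between the highest and lowest index of a transcript had a median of 0.024 and was under 0.05 in 33 of 38 (86.8%), against a median of 0.044 and 58.2% of all loci. The rule, with a floor of 0.85 and a ceiling of 1, bounds this difference in the 38, and nothing is read from it. It was smallest in AT4G06597, with 0.0032, and 0.0041 in U6-1. U6-1 had 0.965 in salt-treated roots, 0.966 in control roots, 0.969 in salt-treated shoots and 0.965 in control shoots. The index summarises a transcript and does not show whether the same bases reacted.

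TPPI and AT2G41231 varied most and in the same direction between tissues. TPPI had 0.874 in salt-treated roots, 0.875 in control roots, 0.973 in salt-treated shoots and 0.970 in control shoots. AT2G41231 had 0.916 in salt-treated roots, 0.892 in control roots, 0.955 in salt-treated shoots and 0.969 in control shoots. Both were less uneven in roots than in shoots, as was AT2G15910, while CYP707A2 and AT1G70430 went the other way. For CYP707A2 the index was 0.988 in salt-treated roots, 0.988 in control roots, 0.920 in salt-treated shoots and 0.935 in control shoots. AT1G70430 had 0.923 in salt-treated roots, 0.913 in control roots, 0.856 in salt-treated shoots and 0.864 in control shoots.

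**Figure D2:**
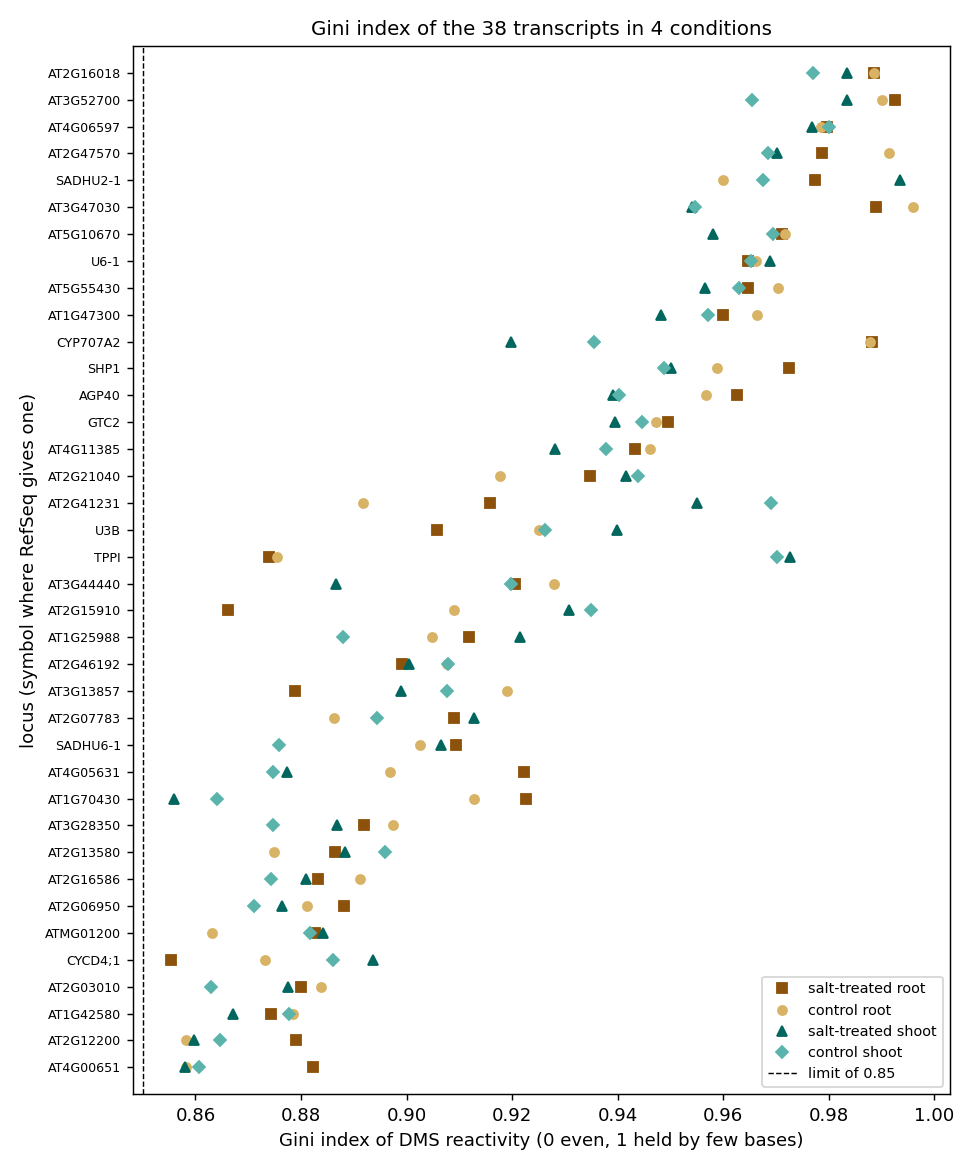
The Gini index (x axis) of each of the 38 transcripts (y axis, ordered by their mean index) is shown for salt-treated roots, control roots, salt-treated shoots and control shoots, with a dashed line at the limit of 0.85. All points lie above the limit by the rule, and TPPI, AT2G41231, AT2G15910, CYP707A2 and AT1G70430 have the widest rows, between 0.067 and 0.099.

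The highest reactivity of a base ran into an upper bound in part of the group. No value in the table exceeded 7, and 8 of the 38 transcripts (21.1%) stood at exactly 7 in all conditions, against 9 of all 8956 loci (0.1%). The 8 were AT2G16018, AT2G41231, AT2G47570, U6-1, AT3G52700, AT4G06597, TPPI and AT5G10670. True heights above the bound cannot be compared among them. SADHU2-1 reached the bound in some conditions, with 6.58 in salt-treated roots, 7 in control roots, 7 in salt-treated shoots and 6.75 in control shoots. AT5G55430 did so in shoots, with 3.99 in salt-treated roots, 6.80 in control roots, 7 in salt-treated shoots and 7 in control shoots.

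The ninth locus at the bound everywhere was AT5G10660, which overlaps the pseudogene AT5G10670 in RefSeq. It was no member, since its Gini index was 0.880 in salt-treated roots, 0.824 in control roots, 0.953 in salt-treated shoots and 0.970 in control shoots. AT5G10670 itself had 0.971 in salt-treated roots, 0.972 in control roots, 0.958 in salt-treated shoots and 0.969 in control shoots. Where annotated genes overlap, reads could be assigned to either, and the values of both are uncertain to that extent. This holds for all 13 members that overlap another gene, among them AT3G52700, SADHU2-1, AT2G16018 and AT2G15910. An overlapping gene was itself in the reactivity table for 3 of 37 members (8.11%), against 12.9% of all loci. AT3G52700 and AT2G15910 were among these 3, SADHU2-1 and AT2G16018 were not.

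The other 28 transcripts never touched the bound, and their highest reactivities ran between 0.943 and 6.92. SHP1 was the highest of them, with 5.04 in salt-treated roots, 5.11 in control roots, 5.93 in salt-treated shoots and 6.92 in control shoots. AT1G47300, second by the mean over conditions, had 4.41 in salt-treated roots, 5.29 in control roots, 5.63 in salt-treated shoots and 5.90 in control shoots. Both were taller in shoots than in roots, as were most loci of the table.

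Low peaks were found in AT2G12200, AT1G42580, AT2G03010, ATMG01200 and AT3G44440. AT2G12200 had a highest reactivity of 1.23 in salt-treated roots, 1.15 in control roots, 1.37 in salt-treated shoots and 1.46 in control shoots. The pseudogene AT1G42580 had 1.24 in salt-treated roots, 0.943 in control roots, 1.90 in salt-treated shoots and 2.20 in control shoots. In AT2G12200 the strongest base was thus below the median of all loci in every condition, and in AT1G42580 in roots. AT2G03010 had 1.42 in salt-treated roots, 1.52 in control roots, 2.10 in salt-treated shoots and 1.72 in control shoots. The mitochondrial locus ATMG01200 had 1.51 in salt-treated roots, 1.30 in control roots, 2.15 in salt-treated shoots and 2.30 in control shoots. AT3G44440 had 1.06 in salt-treated roots, 1.73 in control roots, 2.23 in salt-treated shoots and 2.49 in control shoots. In all 5 both shoot values lay above both root values, which held for 20 of the 38 (52.6%), against 73.6% of all loci.

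As a group the 38 had a higher median peak than all loci. The peak comes from the same bases as the Gini index, and a high index requires it to lie far above the mean. Nothing is therefore read from this difference. Their median highest reactivity was 2.81 in salt-treated roots, 2.46 in control roots, 3.18 in salt-treated shoots and 3.04 in control shoots. Over all loci it was 1.39 in salt-treated roots, 1.28 in control roots, 1.78 in salt-treated shoots and 1.75 in control shoots. Not every tall peak belonged to this group. Of the 17 other loci that reached 7 anywhere, 14 did so in control roots and in no other condition.

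**Figure D3:**
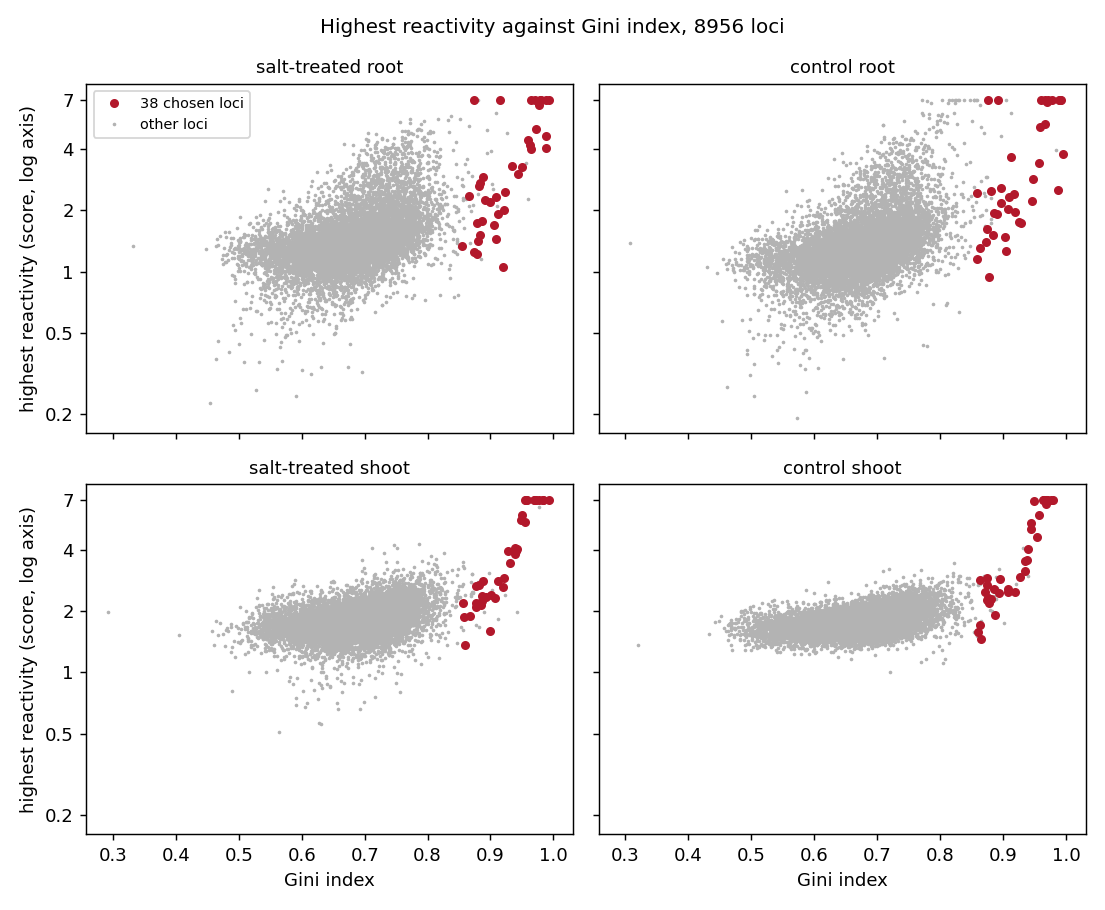
Each panel plots, for 1 condition, the highest reactivity of a transcript (y axis, authors' score, log axis) against its Gini index (x axis), with the 38 very uneven transcripts in red and the other loci in grey. The red points fan out between heights near 1 and the bound of 7, where 8 of them stay in every panel, and in control roots a row of grey points at 7 marks other loci with lower indices.

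How few bases carried the signal can be read from the relation between the mean, the highest value and the Gini index. The Gini index cannot exceed 1 minus the mean over the highest value, and it equals that limit only when every base is either at 0 or at the highest value. In that case the mean over the highest value is the share of bases that carry any signal. Within a tolerance of 1e-06 this held in 15 of the 152 profiles of the group (38 transcripts in 4 conditions), spread over 6 transcripts. The 8918 other loci had 2 such profiles over the same 4 conditions. The Gini index of such a profile is 1 minus its share of reactive bases. Its frequency in the group is therefore tied to the rule, and nothing is read from the difference.

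AT4G06597, a transcribed pseudogene, had this form in all conditions. All its reactive bases stood at 7, and they were 2.03% of bases in salt-treated roots, 2.15% in control roots, 2.31% in salt-treated shoots and 1.99% in control shoots. AT2G47570 had it in roots, where 2.12% of bases stood at 7 in salt-treated roots and 0.847% in control roots. AT3G52700 likewise had 0.746% of bases at 7 in salt-treated roots and 0.995% in control roots.

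SADHU2-1 had all its reactive bases at a single height in 3 conditions, and at a height under the bound in 2 of them. They were 2.27% of bases at 6.58 in salt-treated roots, 0.647% at 7 in salt-treated shoots and 3.24% at 6.75 in control shoots. In AT2G16018 the share was 1.15% in salt-treated roots, 1.15% in control roots and 2.29% in control shoots. AT2G41231 had 4.49% of bases at 7 in salt-treated shoots. In these profiles all other counted bases had a reactivity of 0.

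For profiles of mixed heights an effective share of bases was computed as the squared mean over the sum of the squared mean and the squared standard deviation, which equals the true share when all reactive bases are equal. Its median in the group was 8.85% in salt-treated roots, 9.08% in control roots, 8.17% in salt-treated shoots and 7.65% in control shoots. Over all loci it was 34.3% in salt-treated roots, 35.4% in control roots, 34.0% in salt-treated shoots and 35.3% in control shoots. The lowest of all, in the group and in the table, was AT3G47030 in control roots with 0.435%. The effective share depends only on the standard deviation over the mean, a measure of the same unevenness as the Gini index. Its gap between the group and all loci therefore follows largely from the rule, and nothing is read from it.

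**Figure D4:**
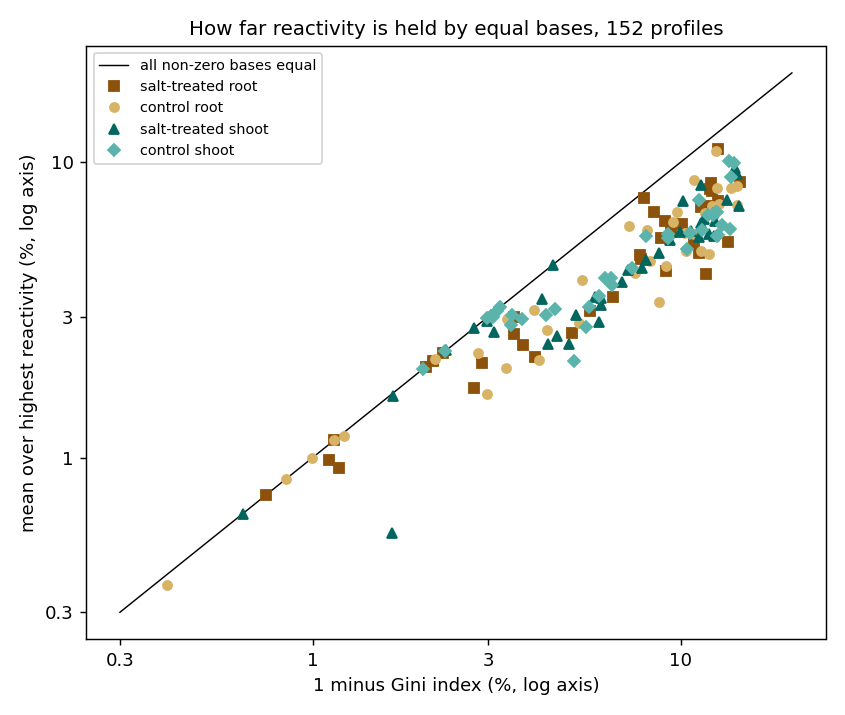
The mean over the highest reactivity (%, y axis, log) is plotted against 1 minus the Gini index (%, x axis, log) for the 152 profiles of the 38 transcripts, marked by condition; the line is the limit reached when all reactive bases are equally high. The 15 profiles on the line lie at 4.49% or below, and the other profiles fall under it.

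Mean reactivity was low in most of the group, and the rule on the Gini index bounds it from above. The median over the 38 was 0.110 in salt-treated roots, 0.106 in control roots, 0.141 in salt-treated shoots and 0.151 in control shoots. All loci had medians of 0.210 in salt-treated roots, 0.198 in control roots, 0.266 in salt-treated shoots and 0.273 in control shoots. In 28 of the 38 (73.7%) the mean was highest in control shoots, against 60.0% of all loci, and in 19 (50.0%) it was lowest in control roots, against 75.2%.

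The full range of means of the 38 was narrow in control shoots and wide elsewhere. In control shoots the highest was 1.72 times the lowest. That ratio was 20.8 in salt-treated roots, 54.2 in control roots and 8.06 in salt-treated shoots. It rests on the extremes, and most of the 38 lay close together in every condition. The lower and upper quartiles were 0.143 and 0.167 in control shoots and 0.132 and 0.168 in salt-treated shoots. In roots they were 0.0942 and 0.138 with salt, and 0.0835 and 0.124 in controls. Control shoots had the narrowest range over all loci as well, with a ratio of 4.21, against 86.5 in control roots. The authors' scaling of reactivity is unknown, and its part in this difference was not tested.

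Exceptions with a high mean were TPPI and AT2G41231 in roots. TPPI had a mean of 0.773 in salt-treated roots, 0.760 in control roots, 0.192 in salt-treated shoots and 0.208 in control shoots. AT2G41231 had 0.476 in salt-treated roots, 0.608 in control roots, 0.314 in salt-treated shoots and 0.209 in control shoots. In both, the strongest base stood at the bound of 7 throughout. The effective share of bases, taken from the bounded values, was larger in roots. It was 13.4% in control roots against 2.99% in control shoots for TPPI, and 11.4% against 3.30% for AT2G41231.

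In shoots, salt-treated plants were set against control plants. Most of the 38 were slightly less reactive with salt, with a median log2 ratio of mean reactivity of -0.11, against -0.035 over all loci. A ratio above 0 was found in 8 of 38 (21.1%), against 37.3% of all loci. By at least 1.5-fold 1 was higher, against 0.0893% of all loci, and 2 were lower, against 0.435%. In either direction this made 3 of 38, against 0.525% of all loci.

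The 2 lower ones, AT3G52700 and SADHU2-1, had the lowest ratios in the whole table. Both overlap other annotated genes, so their values carry the uncertainty of read assignment given above. AT3G52700 had a mean of 0.0390 in salt-treated shoots and 0.197 in control shoots, a log2 ratio of -2.33. Its highest value was at the bound of 7 in both. SADHU2-1 had 0.0453 in salt-treated shoots and 0.218 in control shoots, a log2 ratio of -2.27. Its peak height was 7 in salt-treated shoots and 6.75 in control shoots, so the difference in mean lay in the share of reactive bases, 0.647% against 3.24%.

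Next came AT2G16018 at -0.50, SADHU6-1 at -0.33 and AT5G55430 at -0.28. AT2G41231 was the 1 that was higher, with a mean of 0.314 in salt-treated shoots and 0.209 in control shoots (log2 ratio 0.59), at the edge of the 1.5-fold limit. Behind it stood AT3G44440 at 0.41, AT4G11385 at 0.24, AT4G06597 at 0.21 and AT5G10670 at 0.18. Among the non-coding RNAs, U6-1 was at -0.19, U3B at -0.18 and AT2G46192 at -0.03, and the abscisic acid hydroxylase CYP707A2 was at -0.05.

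In roots the same comparison gave a median log2 ratio of 0.03 for the 38 and 0.09 for all loci. A ratio above 0 was found in 21 of 38 (55.3%), against 80.0% of all loci. Those higher by at least 1.5-fold were 2, AT3G47030 and AT2G47570, against 0.123% of all loci, and 0 were lower, against 0.424%. Over both directions together the share of all loci was 0.547%.

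AT3G47030 had a mean of 0.0457 in salt-treated roots and 0.0140 in control roots, a log2 ratio of 1.70, and the control value was the lowest mean in the table. Its effective share of bases was 1.18% in salt-treated roots and 0.435% in control roots. AT2G47570 had a mean of 0.148 in salt-treated roots and 0.0593 in control roots, a ratio of 2.50. With all reactive bases at 7 in both, that ratio is the ratio of the shares of bases, 2.12% against 0.847%. Both ratios therefore compare very small shares of bases.

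Further members above 0 in roots were AT1G42580 at 0.46, AT1G25988 at 0.43 and U3B at 0.41. The lowest were SADHU2-1 at -0.57, with a mean of 0.149 in salt-treated roots and 0.221 in control roots, AT4G05631 at -0.45, AT3G52700 at -0.42, AT3G44440 at -0.40 and AT2G41231 at -0.35. U6-1 stood at 0.02 and CYP707A2 at 0.31. CYCD4;1 was at 0.19, AGP40 at 0.13, GTC2 at 0.09 and SHP1 at -0.33.

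Seen across both tissues, 19 of the 38 had a ratio above 0 in root and below 0 in shoot, 10 were below 0 in both, 6 were below 0 in root and above 0 in shoot, and 2 were above 0 in both. Over all loci the shares were 48.4% above 0 in root and below 0 in shoot, 14.2% below 0 in both, 5.72% below 0 in root and above 0 in shoot and 31.6% above 0 in both, so that the first class, with 50.0% of the 38, was near the general share. AT2G16018 had equal values with and without salt in root. The salt ratio differed between tissues by at least 1.5-fold in 8 of 38 (21.1%), against 1.22% of all loci. In 6 of these 8 the ratios also lay on opposite sides of 0, against 0.994% of all loci. AT3G52700, at -0.42 in root and -2.33 in shoot, differed most, by 1.92.

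Between tissues without salt the 38 were mostly less reactive in root, as was the table as a whole. Their median log2 ratio of root over shoot was -0.55, against -0.45 over all loci. By at least 1.5-fold 2 were higher, against 0.469% of all loci, and 16 were lower, against 25.3%, with 25.8% of all loci past the limit in either direction. The lowest was AT3G47030, with a mean of 0.0140 in control roots and 0.147 in control shoots (log2 ratio -3.39). CYP707A2 had 0.0300 in control roots and 0.127 in control shoots (-2.09), and AT2G47570 had 0.0593 in control roots and 0.219 in control shoots (-1.88). Below -1 there were also AT3G52700 at -1.50 and AT1G42580 at -1.12.

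The 2 higher in control roots were TPPI, at 3.65 times its shoot reactivity (log2 ratio 1.87), and AT2G41231, at 2.91 times (1.54). AT4G00651 stood at 0.36, AT4G06597 at 0.11 and SADHU2-1 at 0.02. U6-1, at -0.05, hardly differed between the tissues. In TPPI and AT2G41231 the peak stood at the bound of 7 in both tissues, so true peak heights cannot be compared between them.

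With salt the median log2 ratio of root over shoot was -0.35 for the 38 and -0.32 for all loci. By at least 1.5-fold 3 were higher, against 0.257% of all loci, and 11 were lower, against 9.55%, with 9.8% of all loci past the limit in either direction. TPPI led at 2.01, followed by SADHU2-1 at 1.72 and AT2G41231 at 0.60. SADHU2-1 had a mean of 0.149 in salt-treated roots and 0.0453 in salt-treated shoots, whereas without salt its means were 0.221 in control roots and 0.218 in control shoots. CYP707A2 at -1.72, AT3G47030 at -1.63 and AT3G44440 at -1.22 lay lowest. Each condition enters 2 of these comparisons, so the ratios are not independent of each other.

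**Figure D5:**
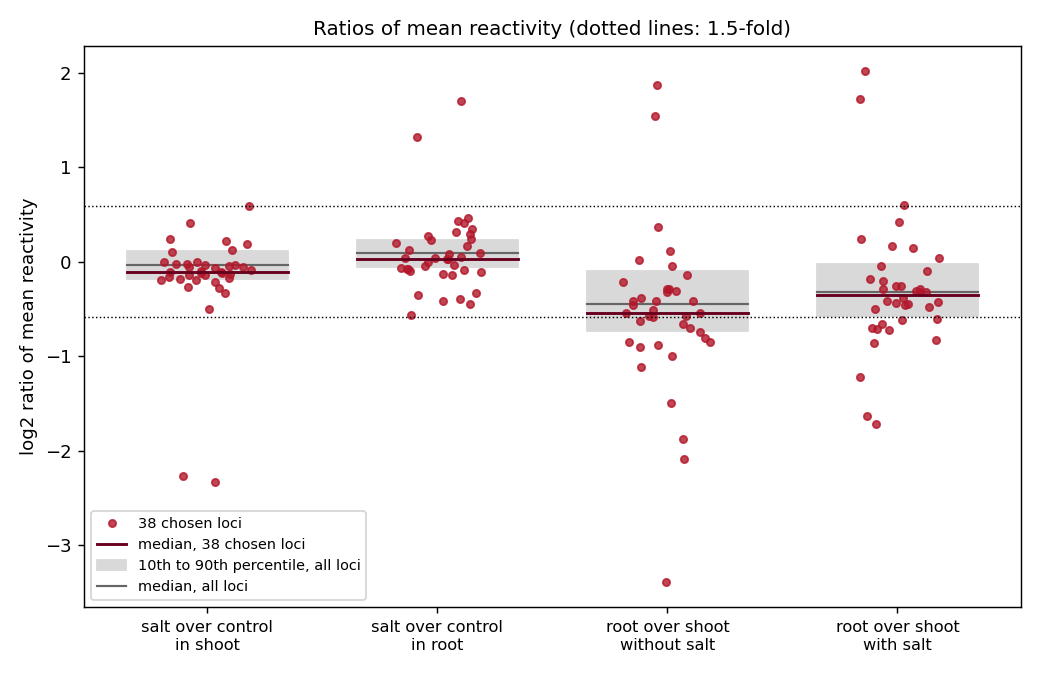
Log2 ratios of mean reactivity (y axis) are shown for 4 comparisons (x axis), with a red point for each of the 38 transcripts, a dark red line at their median, a grey band from the 10th to the 90th percentile of all 8956 loci and a grey line at the median of all loci; dotted lines mark 1.5-fold. The medians of the group lie near those of all loci, while single transcripts reach -2.33 (salt in shoot), 1.70 (salt in root), -3.39 (root over shoot without salt) and 2.01 (root over shoot with salt).

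Gini indices were also compared between conditions. In shoot 18 of 38 had a higher index with salt, and the median difference was -0.0008, against a median of 0.013 and 73.4% higher over all loci. In root 19 had a higher index, with a median difference of 0.0002, against 0.0081 and 65.9% over all loci. Between tissues 24 of 38 had the higher index in root without salt and likewise 24 with salt, against 42.0% and 38.4% of all loci. The rule keeps members above 0.85 in each condition and so bounds these differences.

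Isoforms of a locus offered values that the rule did not use, although isoforms of a locus can share reads. In AT2G15910 the second isoform was far less uneven. Isoform 1 had an index of 0.866 in salt-treated roots, 0.909 in control roots, 0.931 in salt-treated shoots and 0.935 in control shoots. Isoform 2 had 0.578 in salt-treated roots, 0.583 in control roots, 0.575 in salt-treated shoots and 0.597 in control shoots. In AT2G47570 both isoforms passed the limit, and isoform 2 had 0.979 in salt-treated roots, 0.988 in control roots, 0.976 in salt-treated shoots and 0.967 in control shoots. Their means differed. Isoform 2 had a mean of 0.141 in salt-treated shoots and 0.219 in control shoots, a log2 ratio of -0.64, against -0.11 for isoform 1. In roots it had 0.147 in salt-treated roots and 0.0837 in control roots, a ratio of 1.76, against 2.50 for isoform 1. With the highest-numbered isoform of each locus, 3 transcripts were therefore lower with salt in shoot by at least 1.5-fold, in place of 2. No other transcript in the table passed the limit in all conditions, so 39 of 12978 did.

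Transcripts that were very uneven in a single tissue made up 2 neighbouring sets. In both root conditions and neither shoot condition the limit was reached by 17 loci, of which 14 were protein-coding (82.4%) and 2 small nucleolar RNAs, and in both shoot conditions and neither root condition by 12 loci, all protein-coding. The 38, at 65.8%, had a lower share of protein-coding loci than either set; this was not tested. Median RefSeq gene length was 1142 bp in the root set and 1094 bp in the shoot set, against 1199 bp in the 38, all below the 2483 bp of the whole table. The root set included photosystem subunit PSBY, with 0.863 in salt-treated roots, 0.853 in control roots, 0.663 in salt-treated shoots and 0.623 in control shoots. It also included AT1G20015, a small nucleolar RNA, with 0.960 in salt-treated roots, 0.863 in control roots, 0.806 in salt-treated shoots and 0.720 in control shoots. These differences between root and shoot follow from how the sets were chosen.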

How the data were processed

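DMS reactivity was read from the deposited table of 12978 transcripts. Per the file headers, its highest value, mean and standard deviation are scores on the authors' scale, and the Gini index is a fraction. The authors had combined the replicates of each condition. The sources used here do not give aligner, genome build, bases counted, normalization or coverage filter.

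The lowest-numbered isoform was kept, giving 8956 loci. Log2 ratios of mean reactivity were taken without pseudocount or minimum, and 1.5-fold was counted as large. With 1 value per condition there was no test. The group and its lists were chosen with earlier results of these data known. Members were named by the 4 highest and 4 lowest means per condition, the 5 largest ratios each way per comparison, a type other than protein-coding, the 5 highest and 5 lowest peaks under the bound, the 3 loci on each side of the limit, a symbol, kind of gene (up to 3 each), several isoforms, and SADHU2-1, AT3G52700, AT2G47570 and AT1G20015 from earlier results. PSBY, SADHU7-1, AT5G10660 and other names outside this rule were chosen after their values were seen, and not every locus the rule allows is described. Types, symbols, lengths and overlaps came from RefSeq (TAIR10.1), which held 8893 loci and 37 of the 38. Python 3.11.15 and pandas 2.3.3 were used, and the functions were tested on simulated data. Alternatives were Gini limits of 0.80 and 0.90, other isoforms, SD over mean, identical values counted once, a minimum of 0.1, a pseudocount of 0.1, centring and a 2-fold limit.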

Additional observations from a re-analysis of the deposited data

Results flagged for a closer look

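In 6 transcripts the salt ratio lay on opposite sides of 0 in the tissues and differed by at least 1.5-fold between them. This was 15.8% of the 38, against 0.994% of all loci. With 1 value per condition the difference was not tested in any of them. AT3G47030 had a log2 ratio of 1.70 in root and -0.05 in shoot, a difference of 1.76. AT2G47570 had 1.32 in root and -0.11 in shoot, a difference of 1.43. U3B had 0.41 in root and -0.18 in shoot, a difference of 0.60, and AT1G25988 had 0.43 in root and -0.17 in shoot, a difference of 0.59. The remaining 2 went the other way. AT2G41231 had -0.35 in root and 0.59 in shoot, a difference of -0.94, and AT3G44440 had -0.40 in root and 0.41 in shoot, a difference of -0.81. The shoot ratios of AT3G47030 and AT2G47570 lay close to 0, so their opposite sign rests on little. In AT3G47030, U3B, AT1G25988 and AT3G44440 mean reactivity in root, averaged over salt and control, was under 0.1. A minimum mean of 0.1 would therefore leave these root ratios out.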

How the results depend on the processing

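The size of the group follows its limit. A Gini limit of 0.80 gave 88 loci and one of 0.90 gave 17. Of these 17, 5 were outside the protein-coding type, against 12 of the 38. SD over mean in place of the Gini index, every or the highest-numbered isoform and counting identical values once gave 37 to 39, and every one of the 38 passed by SD over mean. The limit on SD over mean, 2.28, was set so that 66 loci reached it in control shoots, as many as reached the Gini limit. Both measures describe the same bases, so the similar count is no separate support. For salt in shoot, 0 transcripts were higher with a pseudocount of 0.1, with a limit of 0.90 and at 2-fold, in place of 1. For salt in root, 1 was higher with a pseudocount or with a minimum mean of 0.1, in place of 2. That minimum left 23 of the 38. After centring, 1 was lower, in place of 0. The median in root was -0.032 with the minimum and -0.057 after centring, in place of 0.03, so its sign depends on the setting. For root over shoot without salt, the median was -0.30 with a pseudocount, -0.093 after centring and -0.75 with a limit of 0.90, and the lower count was 4 with a pseudocount, 5 after centring and 6 at 2-fold, in place of 16. With a limit of 0.90, 0 were higher in place of 2. For root over shoot with salt, the median was -0.20 with a pseudocount, -0.032 after centring and -0.50 with a limit of 0.90, the lower count was 3 with a pseudocount, after centring or at 2-fold, in place of 11, and 1 was higher with a limit of 0.90, in place of 3. Shares of all loci were not counted with a minimum, a pseudocount, centring or a 2-fold limit. The counts under these settings therefore cannot be set against the table as a whole. No paired analysis was possible because the table holds 1 combined value per condition, and for the same reason no replicate could be left out. Depth is unknown, and values that rest on few bases could not be weighted by it.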

Other observations

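AT2G16018 had the same mean (0.0803), highest value (7), standard deviation and Gini index (0.989) in salt-treated and control roots, and its mean in control shoots was exactly 2 times that of control roots. In these 3 conditions all its reactive bases stood at 7. No transcript of the group had the values of another locus in all conditions, whereas 68 loci of the table did.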
